A study of Rattus norvegicus with 164 samples.

Results

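The 11 libraries described here were selected on a measured gene: each had a level above 6 of Drd2, which encodes the D2 dopamine receptor. They are 11 of 130 libraries in all, and the other 119 had Drd2 at 6 or below. A level is log2 of the counts per 1000000 (CPM) plus 1, a scale that understates the change of genes with few counts. All 130 libraries carry the label prelimbic cortex, a medial prefrontal area, and come from heterogeneous stock rats, an outbred population; polyadenylated RNA was sequenced. The series design names the nucleus accumbens (NAcc), the prelimbic cortex (PL) and a region abbreviated pVTA as the regions profiled in the cohort, for genetic analyses of expression. No treatment, genotype, age or sex is given for any group in the sources used here. All 11 belong to the 68 libraries whose animals carry an all-digit identifier, the decimal series. The other 119 comprise 57 decimal libraries, 51 from animals with codes starting E21DCD, and 11 whose code of that kind the labels mark as reassigned. Each library is from a differently identified rat.

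The striatum and the cerebral cortex arise from different parts of the embryonic forebrain. Striatal neurons come from the subpallium under factors such as those of the Dlx, Isl and Sp families; nearly all of them release GABA, and most are spiny projection neurons that carry dopamine D1 or D2 receptors and make the peptides substance P, dynorphin or enkephalin. Cortical projection neurons come from the pallium under factors such as Tbr1, Neurod and Fezf2, and release glutamate packaged by the transporter that Slc17a7 encodes. The ventral striatum, which includes the nucleus accumbens, lies close to the medial prefrontal cortex and receives fibres from it.

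The 11 libraries went against their tissue label in these markers. Drd2 ranged from 7.25 to 7.90 in them and from 1.94 to 4.65 in the rest, so the library just inside the limit stood at 7.25 and the one just outside it at 4.65, decimal replicate 1. Drd1, the D1 dopamine receptor gene, had a lowest level of 8.08, a median of 8.40 and a highest of 8.62, against 3.08, 4.37 and 5.39 in the other libraries. Isl1, a factor of direct-pathway and cholinergic striatal neurons, had a lowest level of 2.63, a median of 3.01 and a highest of 3.35, and was at 0.65 at most elsewhere. Drd1 and Isl1 were thus above all other libraries in each of the 11. Fezf2, a factor of deep-layer cortical projection neurons, had a lowest level of 1.67, a median of 1.95 and a highest of 2.30, against 5.25, 6.07 and 6.70. Slc17a7 had a lowest level of 2.75, a median of 5.97 and a highest of 8.83, against 9.58, 10.83 and 11.20. Neither gene overlapped between the groups, but Slc17a7 varied far more among the 11 than Fezf2 did. Because the marker genes fit a striatal identity, the 11 are called striatal-like libraries in what follows; whether they were dissected from another region was not tested. In such bulk samples fewer cells of a type and less RNA per cell cannot be told apart.

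**Figure D1:**
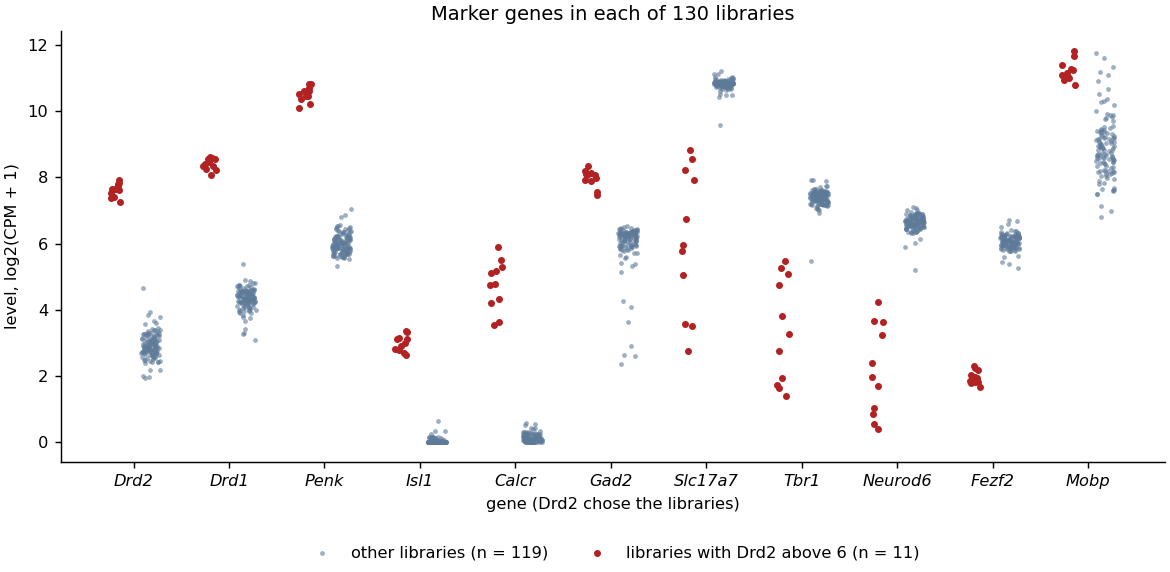
Levels, log2(CPM + 1), of marker genes in each of 130 libraries; red points are the 11 libraries with Drd2 above 6 and blue points the other 119. Red points lie above all blue points for Drd2, Drd1, Penk, Isl1, Calcr and Gad2, below them for Slc17a7, Neurod6 and Fezf2, and overlap the upper end of their range for Mobp; Tbr1 overlaps in 1 library.

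No difference in depth was detected. Summed counts were 25.9 ± 7.76, in units of 1000000, in the striatal-like libraries (SD, n = 11) and 29.8 ± 9.17 in the other decimal libraries (SD, n = 57; two-sided permutation test, p = 0.194, adjusted p = 0.291 over 3 measures). Genes above 0 numbered 23711 to 25808 against 20738 to 26540 (permutation p = 0.623). Across genes, levels of 2 striatal-like libraries correlated with r of 0.981 to 0.995, and those of a striatal-like and another library with r of 0.820 to 0.967. Those of 2 of the other libraries correlated with r of 0.843 to 0.995, so the ranges between and within the groups overlapped. The median r was 0.941 between the groups, 0.989 within the other libraries and 0.990 within the 11. These values describe the libraries, since genes are not independent. Among the other 119 libraries, 7 stood apart with Gad2, a GABA-synthesising enzyme gene, under 5. Over the 10891 genes with a mean of at least 3 in the striatal-like libraries, the median SD was 0.13 among the 11 and 0.23 among the 119. The 119 include the 7 with low Gad2 and libraries outside the decimal series, so these SDs do not compare like sets.

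Of 16663 genes other than Drd2 that reached a level of 1 in at least 11 libraries, 494 were called higher in the striatal-like libraries, 2.96% of the genes compared, and 2.2% were called lower. A gene was called where the lowest and highest levels of the groups did not overlap and the means differed by at least 1 on the log2 scale; 860 genes, 5.16%, were called in either direction. No p-value is given for these differences, because the libraries had been chosen by a gene that follows the same contrast. Most of the transcriptome was shared: 73.4% of genes differed by less than 0.5, and the median difference was 0.06. Of the genes compared, 234 would not have passed without the striatal-like libraries, since fewer than 11 of the others reached a level of 1, and 74 of the 494 higher calls are among them, so the higher count without these is 420. The number called lower rested on few libraries: without decimal replicate 15 it was 581, and without the 7 libraries with low Gad2 it was 700, with 522 higher. Under median-of-ratios scaling, which shifted the median difference by -0.0486, 439 were higher and 574 lower, so 43.3% of calls were higher in place of 57.4%.

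**Figure D2:**
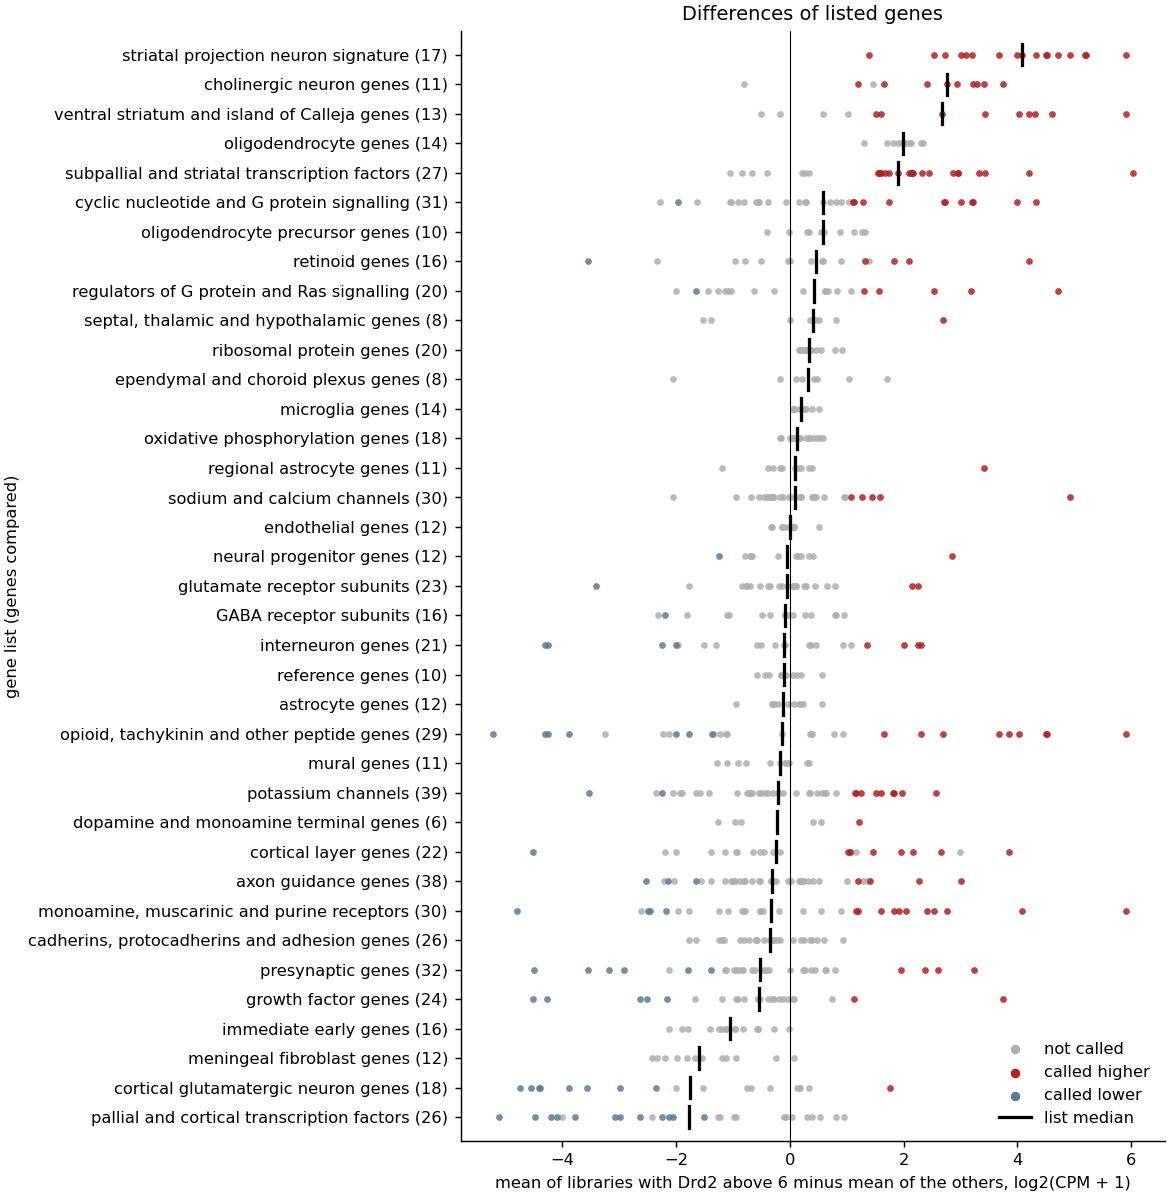
Difference in mean level, log2(CPM + 1), between the 11 libraries with Drd2 above 6 and the other 119 for the genes of 37 lists; each point is a gene, red where called higher, blue where called lower and grey where not called, and the black bar is the list median. Striatal, cholinergic and ventral striatal lists lie on the right, with medians of 4.07, 2.77 and 2.68, and the cortical glutamatergic and pallial factor lists on the left, with medians of -1.76 and -1.78.

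Transcription factor genes were called in opposite directions in the subpallial and the pallial list. Of 27 subpallial and striatal factor genes compared, 20 were called higher and 0 lower, with a median difference of 1.91, and of 26 pallial and cortical factor genes 0 were higher and 12 lower, with a median of -1.78. These counts, and those of the lists that follow, can be read beside the 2.96% and 2.2% of all genes. Of the 27 subpallial genes, 3 would not have passed the filter without the striatal-like libraries, Isl1 among them, and of the other 24, 17 were called higher, with a median of 1.71. The higher count of 20 was the same under median-of-ratios scaling and without the low-Gad2 libraries, and the lower count was 15 under each. Six3, a homeobox factor used by developing striatal neurons, had the largest difference of the subpallial list. Its level was 5.99 at the lowest, 6.27 at the median and 6.73 at the highest, against 0.00, 0.15 and 2.79, or 6.33 ± 0.22 (SD, n = 11) against 0.30 ± 0.42 (SD, n = 119).

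Rarb, which encodes a retinoic acid receptor of striatal neurons, was at 6.25 to 6.94 with a median of 6.75, against 1.63 to 4.03 with a median of 2.48. Pbx3, a homeobox cofactor, was at 6.21 to 6.62 against 1.75 to 4.36, a difference of 3.43. Zfp503, a zinc finger factor of the developing striatum, was at 4.60 to 5.32 against 0.75 to 2.53. None of these ranges overlapped, and each spanned less than 1 log2 unit among the 11. Dlx5 and Dlx6, homeobox genes of GABAergic neurons that lie next to each other, differed by 2.96 and 2.86. Sp9, a zinc finger factor of indirect-pathway neurons, differed by 2.45, Bcl11b, which marks striatal and deep-layer cortical projection neurons, by 2.33, and Foxp2, a forkhead factor of the striatum, by 2.16. Nkx2-1, a factor of the medial ganglionic eminence, was low but apart, at 1.94 to 2.78 against 1.02 at most.

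Not every gene of the subpallial list was higher. Sp8, related to Sp9, was at 0.00 to 0.84 in the striatal-like libraries and at 0.00 to 2.40 elsewhere, a difference of -1.04 with overlap. Dlx1 differed by -0.67 and Dlx2 by 0.33, both with overlap, unlike Dlx5 and Dlx6. The Dlx family was therefore not uniform: its adjacent pair Dlx5 and Dlx6 was called and its pair Dlx1 and Dlx2 was not.

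In the pallial list Neurod6, a basic helix-loop-helix factor of glutamatergic neurons, had a lowest level of 0.40, a median of 1.96 and a highest of 4.25. In the other libraries these were 5.21, 6.66 and 7.10, so the means were 2.15 ± 1.37 (SD, n = 11) against 6.64 ± 0.24 (SD, n = 119) and the groups did not overlap. Neurod2, a related factor, differed by -4.20. Emx1, a homeobox factor of the dorsal pallium, was at 0.13 to 2.55 against 3.39 to 4.48. Tbr1, a T-box factor of deep layers, differed by -4.01 but was not called, because its highest striatal-like library at 5.48 met the lowest other library at 5.46; without the 7 low-Gad2 libraries the lowest was 6.93 and it was called. Several pallial factor genes thus spread widely among the 11, whereas Fezf2 did not. Cux1, an upper-layer homeobox factor, was higher by 0.96, just short of a call.

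**Figure D3:**
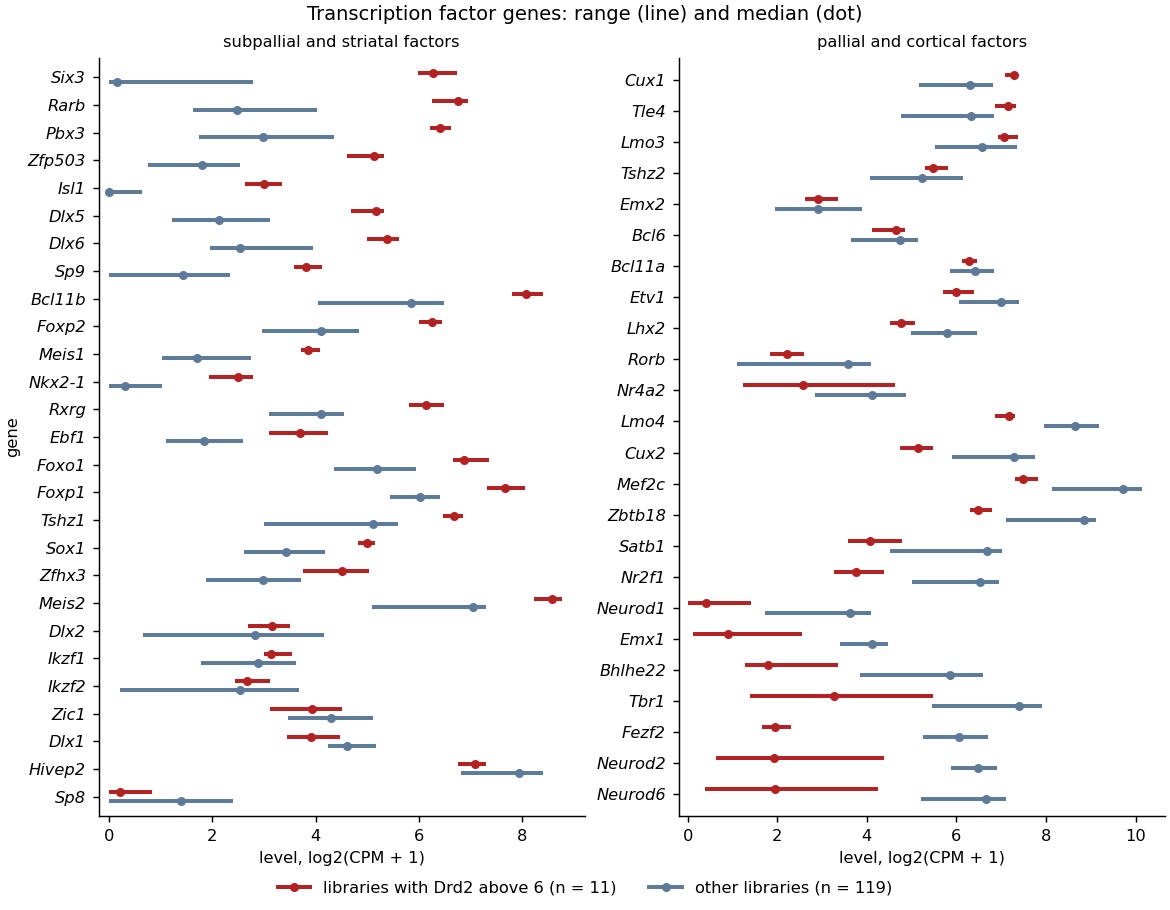
Levels, log2(CPM + 1), of subpallial and striatal and of pallial and cortical transcription factor genes; lines run from the lowest to the highest library and dots are medians, red for the 11 libraries with Drd2 above 6 and blue for the other 119. Six3 and Rarb show the widest gaps on the left, and the medians of Neurod6, Neurod2, Tbr1 and Fezf2 lie far apart on the right, where among these 4 only Fezf2 has a short red line.

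Promoter sequence was examined for a pair of genes called in opposite directions, Cartpt (a ventral striatal peptide gene described further on) and Neurod6, since both carry the letters TGACGTCA of the cyclic AMP response element. The 250 bases before each start site are shown 5′ to 3′ from RefSeq, build GRCr8, with that motif in capitals. Cartpt lies on the minus strand at chr2:32991236-32991485 and Neurod6 on the minus strand at chr4:86180156-86180405.
Cartpt: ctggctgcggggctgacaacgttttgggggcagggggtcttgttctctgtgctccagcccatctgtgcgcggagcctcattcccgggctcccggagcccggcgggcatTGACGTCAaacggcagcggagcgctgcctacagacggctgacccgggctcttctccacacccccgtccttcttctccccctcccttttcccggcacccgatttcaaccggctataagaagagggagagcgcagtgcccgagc
Neurod6: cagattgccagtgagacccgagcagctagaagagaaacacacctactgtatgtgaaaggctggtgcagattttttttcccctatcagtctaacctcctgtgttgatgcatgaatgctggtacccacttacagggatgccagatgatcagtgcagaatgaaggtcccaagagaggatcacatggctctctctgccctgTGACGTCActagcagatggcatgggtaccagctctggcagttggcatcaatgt
The motif begins 142 bases before the start of Cartpt and 53 before that of Neurod6. In windows of 250 bases before to 50 after the start, on either strand, it was found in 5 of 393 genes called higher that had a window (1.27%), 7 of 281 called lower (2.49%) and 386 of all 13547 (2.85%). The letters TATAAA, a form of the TATA box, were found in 8.91%, 10.7% and 7.87% of the same windows. Neither motif can overlap the other. A match of letters is a description of these windows and does not show a bound site, and the opposite directions of the pair were fixed by its choice.

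GABA synthesis and packaging genes were higher in the striatal-like libraries, while most genes of glutamatergic neurons were lower. Gad2 was at 7.48 to 8.34 with a median of 8.07, against 2.37 to 6.52 with a median of 6.21. Slc32a1, the vesicular GABA transporter gene, differed by 2.25 and Gad1, the other GABA-synthesising enzyme gene, by 1.35. All 3 were called. Of 18 cortical glutamatergic neuron genes, 8 were called lower and 1 higher, with a median difference of -1.76. Slc30a3, which loads zinc into glutamatergic vesicles, was at 0.70 to 5.13 with a median of 2.24, against 6.58 to 7.94 with a median of 7.26. The Nogo receptor genes Rtn4r and Rtn4rl2 differed by -4.40 and -4.42, and Nptxr, a receptor of neuronal pentraxins at excitatory synapses, by -3.57. Camk2a, a postsynaptic kinase gene, differed by only -0.75 and Nrgn, a calmodulin-binding postsynaptic protein gene, by -0.68, both with overlap. The gene called higher, Arpp21, encodes a cyclic AMP-regulated phosphoprotein also known from striatal neurons, at 10.22 to 10.92 against 7.92 to 9.04.

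Genes used to name cortical layers did not behave as a group. Of 22, 7 were called higher and 1 lower, with a median of -0.23, and 5 were higher and 3 lower under median-of-ratios scaling. Oprk1, the kappa opioid receptor gene, was at 5.02 to 5.55 against 0.44 to 2.70. Pcp4, a calmodulin-binding protein gene of layer 5 and of striatum, was at 8.79 to 9.39 against 5.69 to 8.02. The lower one, Rspo2, which encodes a secreted enhancer of Wnt signalling, was at 0.00 to 1.73 against 3.08 to 5.84. Nxph4, a neurexin ligand gene used for layer 6b, was at 4.76 to 5.69 with a median of 5.12, against 0.49 to 4.84 with a median of 2.15. Its difference of 2.99 was not called because 1 other library reached 4.84.

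Interneuron genes were called in both directions. Of 21, 4 were called higher, the GABA genes above and Tac3, a tachykinin gene at 5.41 to 6.05 against 2.78 to 4.57, and 4 lower. Without the low-Gad2 libraries 5 were lower. Vip, a peptide gene of cortical interneurons, had a lowest level of 0.19, a median of 1.27 and a highest of 2.54, against 4.96, 5.65 and 6.15. Cck, a peptide gene of interneurons and of cortical pyramidal cells, was at 2.81 to 7.19 against 8.52 to 10.79. Both were below every other library, Vip by the wider margin. Kcnc2, a channel gene of fast-spiking cells, differed by -2.24, and Crh, the corticotropin-releasing hormone gene, by -1.99. Genes of the same subtype were not always called together. Pvalb, the parvalbumin gene, and Kcnc1, a channel gene of fast-spiking cells like Kcnc2, were not called, and Calb2, the calretinin gene, which some Vip cells also make, differed by -0.57 with overlap. Sst, the somatostatin gene, differed by 0.37, Npy by 0.94 and Pvalb by -1.30, all with overlap.

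Most genes of cholinergic neurons, which are local interneurons in the striatum, were called higher. Of 11 compared, 9 were called higher and 0 lower, with a median difference of 2.77, and the counts were the same under median-of-ratios scaling and without the low-Gad2 libraries. Of the 11, 2 would not have passed the filter without the striatal-like libraries, Lhx8 among them, and of the other 9, 7 were called higher, with a median of 2.41. Lhx8, a LIM homeobox factor of forebrain cholinergic neurons, was at 2.86 to 3.84 with a median of 3.34, against 0.00 to 0.94 with a median of 0.00. Slc10a4, a vesicular transporter family gene of cholinergic and monoaminergic neurons, differed by 3.41, Chat, the acetylcholine-synthesising enzyme gene, by 3.29, and Slc5a7, the choline transporter gene, by 2.77. Zic4, a zinc finger factor, did not follow, at 1.17 to 2.08 against 1.61 to 3.42.

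The ventral striatum list, with genes of the nucleus accumbens and the islands of Calleja, was higher as well. Of 13 genes, 9 were called higher and 0 lower, with a median of 2.68, and these counts held under median-of-ratios scaling and without the low-Gad2 libraries. Calcr, Arhgap36 and Drd3 would not have passed the filter without the striatal-like libraries, and of the other 10 genes 6 were called higher, with a median of 2.09. The mean level of the 13 genes was 5.30 to 6.06 in the striatal-like libraries and 2.65 to 3.45 in the others. Cartpt, a peptide precursor gene of the nucleus accumbens, was at 6.74 to 7.67 with a median of 7.08, against 0.26 to 3.37 with a median of 1.06, or 7.20 ± 0.28 (SD, n = 11) against 1.29 ± 0.76 (SD, n = 119). Calcr, the calcitonin receptor gene, was at 3.54 to 5.91 with a median of 4.78, against 0.00 to 0.57 with a median of 0.11. Nts, the neurotensin gene, was at 4.63 to 5.59 against 0.26 to 1.91. Drd3, the D3 dopamine receptor gene of the islands of Calleja, was low but apart, at 1.17 to 2.33 against 0.39 at most.

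Further genes of that list were called with them. Ecel1, an endopeptidase-like gene, differed by 4.31, Arhgap36, a regulator of protein kinase A, by 4.21, and Dlk1, an imprinted Notch-ligand relative, by 3.42. Peg10, an imprinted gene derived from a retrotransposon, was at 7.00 to 8.27 against 2.32 to 5.24. Among the called genes of the list Calcr and Arhgap36 varied most over the 11 libraries, with an SD of 0.75 and 0.65. Crym, a thyroid hormone binding protein gene, and Hap1, a huntingtin-associated protein gene, differed by -0.17 and -0.51 with overlap.

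**Figure D4:**
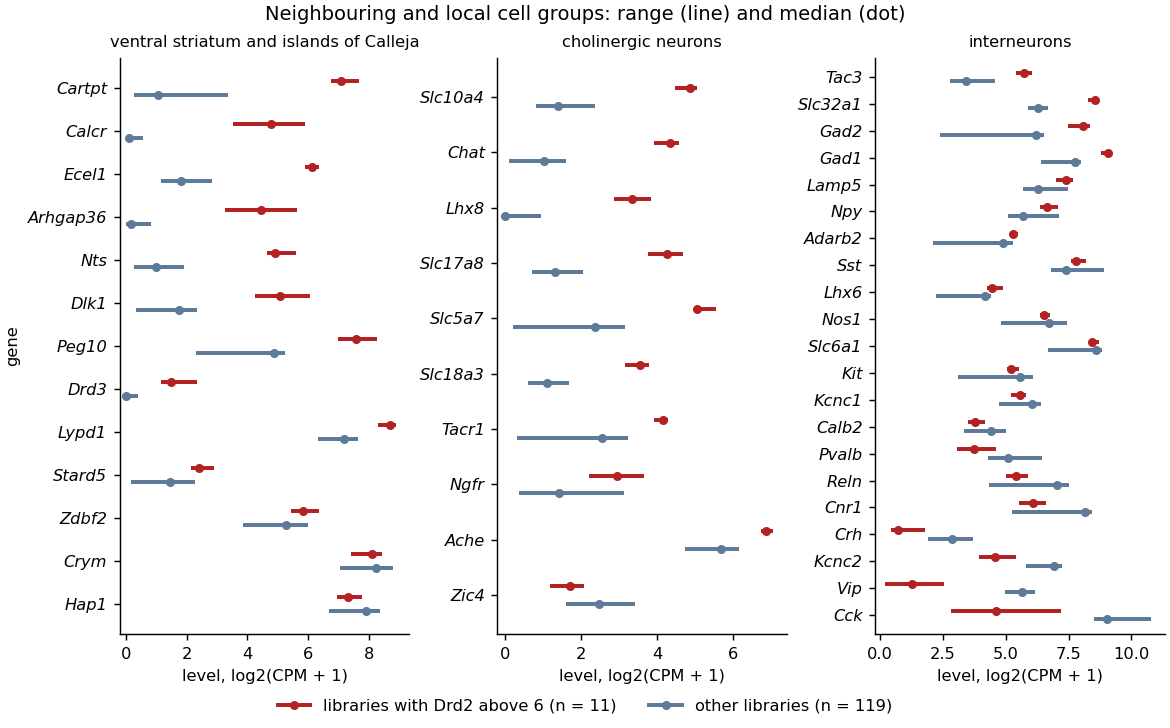
Levels, log2(CPM + 1), of ventral striatum, cholinergic and interneuron genes; lines run from the lowest to the highest library and dots are medians, red for the 11 libraries with Drd2 above 6 and blue for the other 119. Calcr, Arhgap36, Drd3 and Lhx8 are near 0 in the blue libraries, and Vip and Cck are the lowest of the interneuron genes relative to them.

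Of 8 septal, thalamic and hypothalamic genes that passed, 1 was called (12.5%, beside 5.16% of all genes): Trh, the thyrotropin-releasing hormone gene, at 2.65 to 3.50 against 0.00 to 1.31. Of 13 genes of midbrain and brainstem monoamine neurons, 7 did not pass the filter in these libraries. Among these, Slc6a3, the dopamine transporter gene, reached at most 0.19 in the striatal-like libraries and 2.13 in the others. Th, the rate-limiting enzyme gene of dopamine synthesis, was at 0.40 to 1.17 against 0.76 to 2.72. Only Tph2, an enzyme of serotonin synthesis, was called of the 6 genes that passed (16.7%), at 1.20 to 1.86 against 1.19 at most, and it was not called under median-of-ratios scaling. Slc18a2, the vesicular monoamine transporter gene, was at 3.92 to 4.34 against 1.77 to 4.65, a difference of 0.54, and Ddc, an enzyme of dopamine and serotonin synthesis, differed by 0.40 with overlap. Of the 6, 3 had a higher and 3 a lower mean in the striatal-like libraries. Neither Trh nor Tph2 would have passed the filter without those libraries.

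Retinoid genes were called in both directions. The receptor genes Rarb, as given above, and Rxrg, by 2.09, were higher, and so were the binding protein genes Crabp1 and Rbp4 by 1.83 and 1.32. Cyp26b1, an enzyme that breaks down retinoic acid, was at 0.86 to 2.28 with a median of 1.63, against 2.67 to 6.04 with a median of 5.08. In all, 4 of 16 were called higher and 1 lower, and 2 and 1 under median-of-ratios scaling. Rara and Rxra, receptor genes of wide expression, differed by -0.50 and -0.03 with overlap.

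Genes of cyclic nucleotide and G protein signalling were mostly called higher where they were called. Of 31 genes, 11 were called higher and 1 lower (2 lower under median-of-ratios scaling and 3 without the low-Gad2 libraries). Gnal, the stimulatory G protein subunit that couples dopamine D1 and adenosine receptors to adenylyl cyclase in striatum, was at 8.81 to 9.45 against 4.38 to 6.42, whereas Gnas, the widespread form, was at 9.61 to 10.13 and differed by -0.91 with overlap. Gng7, the gamma subunit that partners Gnal, was at 10.50 to 10.96 against 6.07 to 7.97, and Gng2, another gamma subunit, at 5.82 to 6.95 against 7.62 to 8.65. Adcy5, the main striatal adenylyl cyclase, differed by 2.73, and Adcy1, a calmodulin-stimulated cortical form, by -2.29 with overlap. The phosphodiesterase genes Pde7b, Pde10a and Pde1b, which break down cyclic nucleotides, differed by 3.23, 3.00 and 2.71. Ppp1r1b, which encodes the dopamine-regulated phosphatase inhibitor DARPP-32, differed by 4.33.

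Regulators of G protein and Ras signalling gave 5 higher and 1 lower of 20, and 4 were lower under median-of-ratios scaling and 5 without the low-Gad2 libraries. Rgs9, which shortens G protein signals in striatum, was at 7.77 to 8.33 against 2.21 to 5.08. Rasgrp2, a calcium-dependent activator of Rap, was at 6.29 to 6.75 against 2.88 to 4.25, and Rasd2, a striatal small GTPase, differed by 2.53. Rasgrp1 and Rasgrp3, relatives of Rasgrp2, differed by 0.68 and 0.64, with overlap. Rasal1, a Ras inactivator, was the gene called lower, with a difference of -1.65.

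Peptide genes moved in both directions, with 9 of 29 called higher and 7 lower (12 lower without the low-Gad2 libraries, and 8 of 28 higher without the gene that needed the striatal-like libraries to pass the filter). Beyond Penk, Pdyn and Tac1, the precursors of enkephalin, dynorphin and substance P that name the striatal output neurons, the higher ones included Cartpt, Nts and Trh. Grp, the gastrin-releasing peptide gene, had a lowest level of 0.21, a median of 0.48 and a highest of 0.94, against 4.75, 5.74 and 6.69, and a difference of -5.23. Adcyap1, which encodes the peptide PACAP, was at 0.51 to 2.65 against 4.07 to 5.90. Npy1r, a neuropeptide Y receptor gene, differed by -1.77 and Crhr1, a receptor gene for corticotropin-releasing hormone, by -1.38. The ligand genes Crh and Vip and the receptor gene Crhr1 were thus all lower.

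Receptors for monoamines, acetylcholine and purines also went both ways, with 11 of 30 called higher and 4 lower (9 lower without the low-Gad2 libraries, and 9 of 28 higher without the 2 genes that needed the striatal-like libraries to pass). Of the serotonin receptor genes, Htr1d was at 3.43 to 4.18 against 0.50 to 2.06, Htr2c at 7.92 to 8.55 against 3.42 to 6.46, and Htr4 at 3.14 to 3.88 against 0.07 to 1.56. Htr6 was higher by 1.93, and Htr1a, an inhibitory receptor gene of cortical neurons, was lower, at 1.42 to 3.63 against 4.36 to 5.40. Of the adrenergic receptor genes, Adra2c differed by 2.05 and Adra1d, an alpha-1 form, was at 0.30 to 2.13 against 4.60 to 6.31. Adra1b, another alpha-1 form, differed by -2.17. The muscarinic receptor genes Chrm4 and Chrm5 were higher by 1.16 and 1.83, and the nicotinic subunit gene Chrna4 differed by -2.48. Cnr1, the cannabinoid receptor gene, was at 5.54 to 6.59 against 5.25 to 8.42; it was called lower only without the low-Gad2 libraries, where the lowest other library was at 7.41.

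Among receptor genes for glutamate and GABA, 3 of 23 (13%) and 1 of 16 (6.25%) were called, beside 5.16% of all genes. Of the glutamate receptor genes, 2 were called higher and 1 lower (2 lower under either alternative), with a median of -0.05, and the AMPA receptor genes Gria1 and Gria2 differed by 0.26 and -0.15. Those called were Grm4, a presynaptic metabotropic receptor gene at 6.54 to 6.76 against 3.66 to 4.80, Grin3b, an NMDA receptor subunit gene at 4.12 to 4.53 against 1.23 to 2.70, and Grm2, another presynaptic receptor gene, at 2.08 to 3.64 against 3.92 to 6.60. The GABA receptor gene called was Gabrq, lower with a difference of -2.20. Under median-of-ratios scaling 3 were lower, and without the low-Gad2 libraries 5 were lower, among them Gabbr2, a subunit of the metabotropic receptor, whose difference over all libraries was -2.32.

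Among 39 potassium channel genes 9 were called higher and 2 lower (8 lower without the low-Gad2 libraries). Kcna5, a delayed rectifier gene, was at 5.16 to 5.85 against 1.81 to 3.50, and Kcnj2, an inward rectifier gene of striatal projection neurons, at 5.65 to 6.45 against 1.73 to 4.60. Kcnj6, a G protein-gated inward rectifier gene, was lower, at 2.06 to 4.67 against 5.18 to 7.36. Inward rectifiers thus went opposite ways. Of 30 sodium and calcium channel genes 5 were higher and 0 lower, led by the sodium channel beta subunit gene Scn4b at 8.92 to 9.75 against 2.62 to 6.53. The beta subunit genes Scn2b and Scn3b differed by 0.38 and 0.46 with overlap.

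Presynaptic genes gave 4 higher and 6 lower of 32 (7 lower under median-of-ratios scaling and without the low-Gad2 libraries). Sv2c, a synaptic vesicle protein gene, was at 4.73 to 6.19 against 0.07 to 3.50, while its relative Sv2b differed by -2.12 and overlapped by a narrow margin, with 7.51 as its highest striatal-like library and 7.42 as the lowest of the others. The calcium sensor genes Syt2 and Syt10 differed by 2.61 and 2.37, and Syt17, a related gene, by -3.54. C1ql3, a secreted synapse organiser, was at 4.45 to 5.78 against 8.11 to 9.81, and Cbln2, another organiser, differed by -3.18. Stx1a, a syntaxin of vesicle fusion, was at 5.06 to 6.08 against 8.05 to 9.21. Syt1, the main calcium sensor gene, differed by -0.82 with overlap, and Syn1, a vesicle phosphoprotein gene, by -1.39.

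Of 26 cadherin, protocadherin and other adhesion genes 0 were called in either direction, near the 5.16% of all genes for a list of this size, with a median of -0.35, and without the low-Gad2 libraries Cdh12, Cdh18 and Nectin3 were lower. Of 38 axon guidance genes 4 were higher and 3 lower (5 lower under median-of-ratios scaling and 9 without the low-Gad2 libraries). Ntn1, the secreted guidance cue netrin-1, was at 6.64 to 6.99 against 2.44 to 4.69, and its receptor gene Dcc differed by 1.41. Epha8, an ephrin receptor gene, differed by 2.26 and Ephb6, a kinase-inactive ephrin receptor gene, by -2.52. Of 24 growth factor genes 2 were higher and 5 lower, and 1 of 23 higher without the gene that needed the striatal-like libraries to pass. Under median-of-ratios scaling and without the low-Gad2 libraries 6 were lower. Bdnf, a neurotrophin that cortical neurons supply to the striatum, was at 0.28 to 2.45 with a median of 0.62, against 3.79 to 6.01 with a median of 5.38. Its receptor gene Ntrk2 differed by -0.56 with overlap. Ntf3, another neurotrophin gene, differed by -2.17, Wnt4 by -2.51 and Gfra2, a receptor subunit for neurturin, by -2.63, whereas Gdnf, a survival factor for dopamine neurons, was higher by 1.14.

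In 4 of 12 gene families compared, members were called in opposite directions. Among the vesicular glutamate transporters Slc17a7 differed by -4.74 and Slc17a8, the form of striatal cholinergic interneurons, by 2.94. Slc17a6, the form of thalamic neurons, differed by -1.53 with overlap. Gng7 and Gng2, given above, were the G protein pair. Among neuronal calcium sensors Hpca, which encodes hippocalcin, was at 9.98 to 10.56 against 7.99 to 9.09, and Vsnl1, which encodes visinin-like 1, at 7.25 to 8.04 against 9.22 to 10.28. Of the LIM domain only factors Lmo1 differed by 1.24, and Lmo4 was at 6.87 to 7.31 against 7.95 to 9.19. The forkhead genes Foxp1 and Foxp2 were both called higher, while Foxp4 differed by -0.50.

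Glial and vascular genes gave no call with 1 exception; in lists of 10 to 14 genes a count of 0 is near the 5.16% of all genes. The exception was Unc13c, a presynaptic priming factor gene that is also a regional astrocyte marker, at 6.87 to 7.24 against 2.64 to 4.67. All 14 oligodendrocyte genes had a higher mean in the striatal-like libraries, with a median difference of 1.99, but 0 were called. The mean level of the 14 was 8.39 to 9.23 in the striatal-like libraries and 5.20 to 9.13 in the others, of which 5 lay within the range of the 11. Mobp, a myelin protein gene, was at 10.79 to 11.82 with a median of 11.16, against 6.79 to 11.74 with a median of 8.83. Its range overlapped the upper end of that in the other libraries, and 6 of the 119 reached it. The part of myelin-rich tissue in the differences above was not tested. Oligodendrocyte precursor genes had a median difference of 0.58, astrocyte genes of -0.12, microglia genes of 0.20, endothelial genes of 0.00 and mural genes of -0.17.

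Meningeal fibroblast genes leaned the other way, with 11 of 12 lower in mean, a median of -1.60 and 0 called. The mean level of the 12 was 2.08 to 3.29 against 2.64 to 5.02. Igfbp2, a growth factor binding protein gene, was at 1.12 to 3.93 against 3.53 to 6.00, and Col1a2, a collagen gene, differed by -1.98. Immediate early genes, which neurons switch on with activity, had lower means in 16 of 16, with a median of -1.05 and 0 called; 2 were called lower under median-of-ratios scaling and 3 without the low-Gad2 libraries. Fos was at 1.76 to 4.31 against 0.35 to 6.34, and Egr3 differed by -0.02. Ribosomal protein genes had a median of 0.33, oxidative phosphorylation genes of 0.13 and reference genes of -0.11, all without a call. Of 8 ependymal and choroid plexus genes 0 were called, and Ttr, the main choroid plexus gene, was at 0.46 at most in the 11 libraries. Of 12 neural progenitor genes Igfbpl1, which marks migrating neuroblasts, was called higher, at 2.76 to 3.64 against 2.23 at most.

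Most called genes lay outside the lists: 692 of the 860. Of those chosen by size, the largest higher difference was that of Gpr101, an orphan G protein-coupled receptor gene, at 4.05 to 6.06 against 0.00 to 1.29. Strip2, of a phosphatase complex, was at 7.83 to 8.57 against 2.09 to 5.14, and Nexn, an actin-binding protein gene, at 5.49 to 6.34 against 0.61 to 2.71. Slc35d3, a transporter family gene that acts on D1 receptor trafficking, differed by 4.53. Lrrc10b, Krt71, a keratin gene, and Pcp4l1, a relative of Pcp4, differed by 4.49, 4.46 and 4.19. P2ry1, a purine receptor gene, was at 4.79 to 5.77 against 0.16 to 2.80. Patj, a cell polarity scaffold gene, Sh3rf2, Mifl4 and Slc24a1, a sodium, calcium and potassium exchanger gene, had differences of 3.48 to 3.86.

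On the lower side outside the lists, Npr3, a natriuretic peptide clearance receptor gene, was at 0.13 to 1.49 with a median of 0.49, against 3.01 to 6.22 with a median of 5.69. Bmp3, a bone morphogenetic protein gene, was at 0.60 to 2.55 against 3.92 to 5.91, and Tnfsf15, a cytokine gene, at 0.38 to 1.32 against 2.12 to 5.08. The steroid hydroxylase gene Cyp11b1 and its relative Cyp11b2l1 differed by -3.67 and -3.65; near-identical copies such as these can share reads, so their separate values are uncertain. Car10, a carbonic anhydrase relative that binds neurexins, was at 2.72 to 4.49 against 5.51 to 7.62, and Doc2a, a calcium sensor of transmitter release, at 2.44 to 3.88 against 4.54 to 6.79. Smim43, Exph5, Aldh3b2, an aldehyde dehydrogenase gene, Ptpn3, a tyrosine phosphatase gene, and Dkk3, a secreted Wnt pathway relative, had differences of -3.51 to -3.30.

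Among the 11 libraries, cortical neuron genes varied together. Slc17a7 was lowest in decimal replicate 64 at 2.75, replicate 55 at 3.50 and replicate 34 at 3.58. It was highest in replicate 57 at 8.83, replicate 58 at 8.55, replicate 63 at 8.21 and replicate 4 at 7.93. The other 4 libraries lay between 5.06 and 6.73, and even the highest was under the 9.58 of the lowest other library. Tbr1 was at 1.40, 1.74 and 1.64 in the 3 libraries with the lowest Slc17a7 and at 5.48, 5.27, 5.09 and 4.75 in the 4 with the highest, in the order given. Neurod6 was at 0.40, 0.55 and 0.86 in the former and at 4.25, 3.63, 3.65 and 3.25 in the latter. Fezf2 stayed between 1.67 and 2.30 throughout. Penk lay between 10.10 and 10.82, at 10.45, 10.81 and 10.51 in the 3 libraries with the lowest Slc17a7. Its lowest levels were those of the 4 with the highest Slc17a7, at 10.36, 10.20, 10.44 and 10.10 in the same order.

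**Figure D5:**
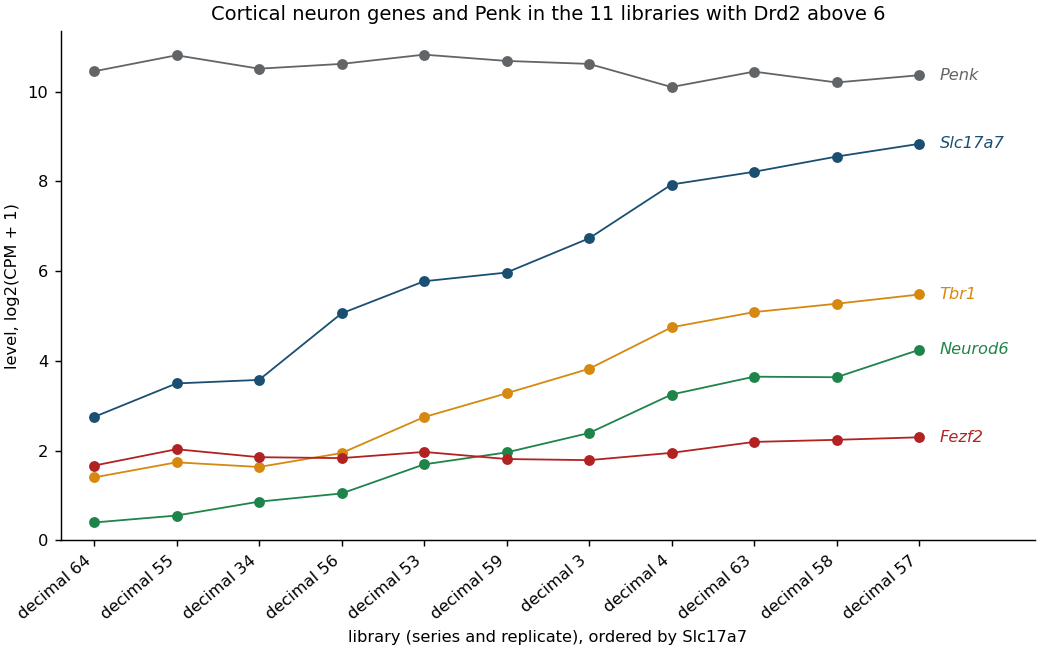
Levels, log2(CPM + 1), of Slc17a7, Tbr1, Neurod6, Fezf2 and Penk in each of the 11 libraries with Drd2 above 6, ordered by Slc17a7; each point is a library and lines join the points of a gene. Slc17a7 climbs from 2.75 to 8.83 with Tbr1 and Neurod6, while Fezf2 stays between 1.67 and 2.30. Penk lies between 10.10 and 10.82, with its lowest levels in the libraries highest in Slc17a7.

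The mean level of the glutamatergic list, 5.64 to 7.12 over the 11 libraries, was set against that of 10 other lists. It went with the pallial factor list with Pearson's r = 0.99 and Spearman's rho = 0.95 (n = 11, permutation test, adjusted p = 5e-05 and 0.0002), and r was 0.98 without the 2 libraries farthest from the median. With the interneuron list r was 0.96 and rho 0.93 (n = 11, permutation adjusted p = 5e-05 and 0.0007), and 0.93 without those 2; Cck, a member of that list, is also made by pyramidal cells. The unadjusted permutation p of r was 1e-05 for both, the smallest that the permutations can give. With the ventral striatum list r was -0.70 and rho -0.79 (n = 11, permutation adjusted p = 0.0443 and 0.0181), and -0.76 without those 2. Under median-of-ratios scaling that last relation missed the threshold, with r = -0.62 (n = 11, permutation adjusted p = 0.124). The glutamatergic and pallial factor lists both hold genes of cortical glutamatergic neurons. Their agreement was largely fixed by that choice, so its p-values are no independent support.

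The other 7 relations of r did not pass. The striatal projection list gave r = -0.61 (n = 11, permutation p = 0.0516, adjusted p = 0.112) and rho = -0.56 (permutation p = 0.0766, adjusted p = 0.128). The oligodendrocyte list gave r = 0.55 (permutation adjusted p = 0.112) and the meningeal list r = 0.54 (permutation adjusted p = 0.112), although the rank correlation of the latter passed at 0.73 (permutation adjusted p = 0.0355). Scores of lists share the scaling of their library, and the wide spread of Slc17a7 among these libraries was known before the relations were computed.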

How the data were processed

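RNA sequencing of rat brain gave 1 deposited table of 38354 genes in 130 libraries; 34 of the 164 samples in the labels were removed by the authors and have no column. Reads were quantified with kallisto 0.48, per the submitters' processing notes; the annotation release and any alignment step are not given in the sources used here. The deposited unit is log2 of the estimated count per gene plus 1, without scaling for depth: 36.9% of values are 0, the highest is 21.9, and 61.5% of linear values between 0.5 and 30 lie within 0.01 of a whole number. Because the deposited unit is log2, count models were not used. Summed counts per library were 15.1 to 55.95, in units of 1000000.

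Values were turned back to counts, scaled to 1000000 per library, and log2 was taken with a pseudocount of 1. Genes at a level of 1 or more in at least 11 libraries were compared by range and mean; with no test for chosen libraries, a call is descriptive. Library measures and relations within the 11 libraries were tested with 100000 two-sided permutations and Benjamini-Hochberg adjustment, at an adjusted p of 0.05. Samples that the labels list under separate identifiers were the replicates; nothing else says how they were processed, so p-values measure the spread between these samples, which may be partly technical. The calling script was tested on simulated data.

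The libraries, the 37 gene lists (650 distinct genes compared, 52 of them in more than 1 list), the 12 families and the tests were chosen with earlier results of these data known. Named were the first 4 members of each list and its largest difference in each direction, family members called in opposite directions, and the 12 largest called differences each way outside lists with a mean of at least 3; other genes were named after their values were seen. Some results under this rule are given only as counts. Alternatives were median-of-ratios scaling (factors 0.523 to 2.12), a pseudocount of 0.1, other filters, a difference of 2, and subsets of libraries. The labels do not name the build; 38278 symbols were found in the RefSeq GRCr8 table, from which promoter windows were taken for 13547 genes compared. Python 3.11.15, numpy 2.4.6, pandas 2.3.3, scipy 1.17.1 and matplotlib 3.10.9 were used.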

Additional observations from a re-analysis of the deposited data

How the results depend on the processing

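Calls rest on the extremes of 119 libraries, so the number lower moved most: from 2.2% of genes to 574 genes under median-of-ratios scaling, 700 without the 7 libraries with Gad2 under 5, and 2.19% to 3.49% of genes leaving out each library in turn (581 genes without decimal replicate 15), against 2.92% to 3.1% for those higher. A difference of at least 2 left 159 higher and 137 lower. With no condition on the ranges, a setting chosen after seeing the data as was leaving out each of the 130 libraries, 804 were higher and 904 lower. The counts were 520 and 402 against the decimal series alone, 538 and 431 without the 2 striatal-like libraries with the highest Slc17a7, 523 and 392 with a pseudocount of 0.1, and 410 higher with a filter on the mean and 507 with none, with the lower count unchanged. Choosing the libraries by Penk, Drd1 and Adora2a gave the same 11. Of 228 named genes under 9 alternatives, 0 called ones changed direction, while 53 of the values, and 6 of those of the 37 list medians, moved by more than the SD of the other libraries, with a pseudocount of 0.1 or without those 2 libraries. The relation of the glutamatergic with the ventral striatum list weakened under median-of-ratios scaling, to r = -0.619 (n = 11, permutation adjusted p = 0.124); the cause was not tested. No paired analysis was possible because each library is from a differently identified animal and the numbers pair no samples. Genes near 0 in either group are limited by depth.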

Other observations

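The gene with the most counts in a library was Zfp532 in 5 of the 11 striatal-like libraries, the myelin gene Mbp in 3 and the unnamed locus LOC120093067 in 3. That gene held 0.715% to 2.56% of counts in these libraries and 0.386% to 15.1% in the other decimal libraries, 1.21 ± 0.523% (SD, n = 11) against 0.743 ± 1.95% (SD, n = 57; two-sided permutation test, p = 0.167, adjusted p = 0.291 over 3 measures). The medians were 1.12% and 0.432%. The 15.1% was that of decimal replicate 15, and the next highest of the other decimal libraries was at 1.08%. A test of means dominated by 1 such library cannot decide whether the share differed in the rest.

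Of genes with a mean of at least 3 in the striatal-like libraries, those that varied most among them included genes outside the cortical neuron lists. Xist, on the X chromosome, varied most, from 0.00 to 9.91 among the 11 and from 0.06 to 9.88 in the other libraries. Its median was 9.24 among the 11 and 1.44 in the other libraries, a difference whose source was not tested. The globin gene Hbbl1 ranged from 0.01 to 6.25, and from 0.00 to 7.23 in the other libraries. The MHC class I gene RT1-CE16 ranged from 0.51 to 5.23, and from 0.07 to 6.10 elsewhere. Sncg, a synuclein gene, ranged from 1.50 to 5.52, and from 1.67 to 5.26 elsewhere. For these genes the ranges of the groups overlapped almost fully, although the medians of Xist lay far apart. Ccn3, a matricellular protein gene, ranged from 1.72 to 5.74 against 5.08 to 8.34, so only its highest libraries met the others.

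Of the called genes, 440 of the 494 higher and 325 of the lower ones are annotated as protein coding, and 53 and 40 as long non-coding RNA.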
